A study of Mus musculus with 6 samples.

Results

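The glutathione transferases described here are 10 genes of the deposited expression table, taken by their symbols: Gsta3, Gsta4, Gstm1, Gstm2, Gstm5, Gstp1, Gsto1, Gstt1, Gstk1 and Mgst1. They are 10 of the 19309 genes in the table, and all 10 were found and passed the filter on low counts. The study sequenced RNA of both cheeks of 3 C57BL/6 mice, aged 6 to 8 weeks, as 6 libraries. In the AEW group (n = 3, right cheeks) the shaved skin was wiped for 30 s with a mixture of equal parts acetone and ether and then for 30 s with distilled water. In the vehicle group (n = 3, left cheeks of the same animals) it was wiped for 60 s with distilled water alone. Wiping was done each morning and late afternoon until tissue was taken on day 12. No allele or other agent is named for either group, and the series title names MMP9 although no sample label names it. Side of the face and treatment coincide in every mouse and cannot be told apart. Library totals lay between 18449145 and 19506462 estimated counts.

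Glutathione transferases join the thiol of glutathione to electrophilic compounds, among them drugs, carcinogens and the reactive aldehydes left by lipid peroxidation. The soluble enzymes are sorted into classes named by Greek letters, the kappa enzyme lies in mitochondria and peroxisomes, and the microsomal enzymes are unrelated membrane proteins. Many of these genes are targets of the transcription factor Nrf2, and in skin the enzymes are part of the defence against oxidants and foreign chemicals.

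After repeated acetone and ether wiping, the glutathione transferases of cheek skin moved in both directions. Transcripts of Gsta4 were 3.68-fold higher in AEW skin, while those of Gsta3, Gstm1, Gstm5, Gstk1 and Mgst1 were lower, at 0.45, 0.607, 0.633, 0.749 and 0.727 of the vehicle level. Counts were compared with the quasi-likelihood test of edgeR, and a gene was called at a Benjamini-Hochberg adjusted p under 0.05 over all 15109 tested genes. By this rule 1 of the 10 members was higher and 5 were lower, against 4.85% of all tested genes called higher and 6.80% called lower. The median log2 fold change was -0.44 over the 10 members and 0.014 over all tested genes. With the mouse as a block in the fit, 0 members were higher and 3 lower (Gsta3, Gstm1 and Gstm5), against 1.99% and 3.89% of all genes in these directions and 5.88% in either. Each library was also left out in turn. Leaving out either vehicle replicate 1 or vehicle replicate 3 gave 0 calls among the members. Over all genes these fits had only 33 and 23 higher calls and 148 and 117 lower calls. The fit lacking AEW replicate 2 had 1 lower call and that lacking AEW replicate 3 had 2, both with 0 higher. Over all genes they had 175 and 346 higher calls and 258 and 654 lower calls. Without vehicle replicate 2 the fit had 4 lower and 0 higher calls, and without AEW replicate 1 it had 4 lower and 2 higher. Over all genes the numbers were 807 lower and 376 higher, and 1041 lower and 1197 higher. At an unadjusted p under 0.05 the fits lacking 1 library each had 2 members higher and 5 or 6 lower. Over all genes they then had 1376 to 2463 higher and 1696 to 2595 lower, of 15269 to 15291 tested. DESeq2 called 2 members higher and 5 lower, against 1362 and 1511 of all 15109 tested genes. In these bulk samples fewer cells of a type and less RNA per cell cannot be told apart.

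**Figure D1:**
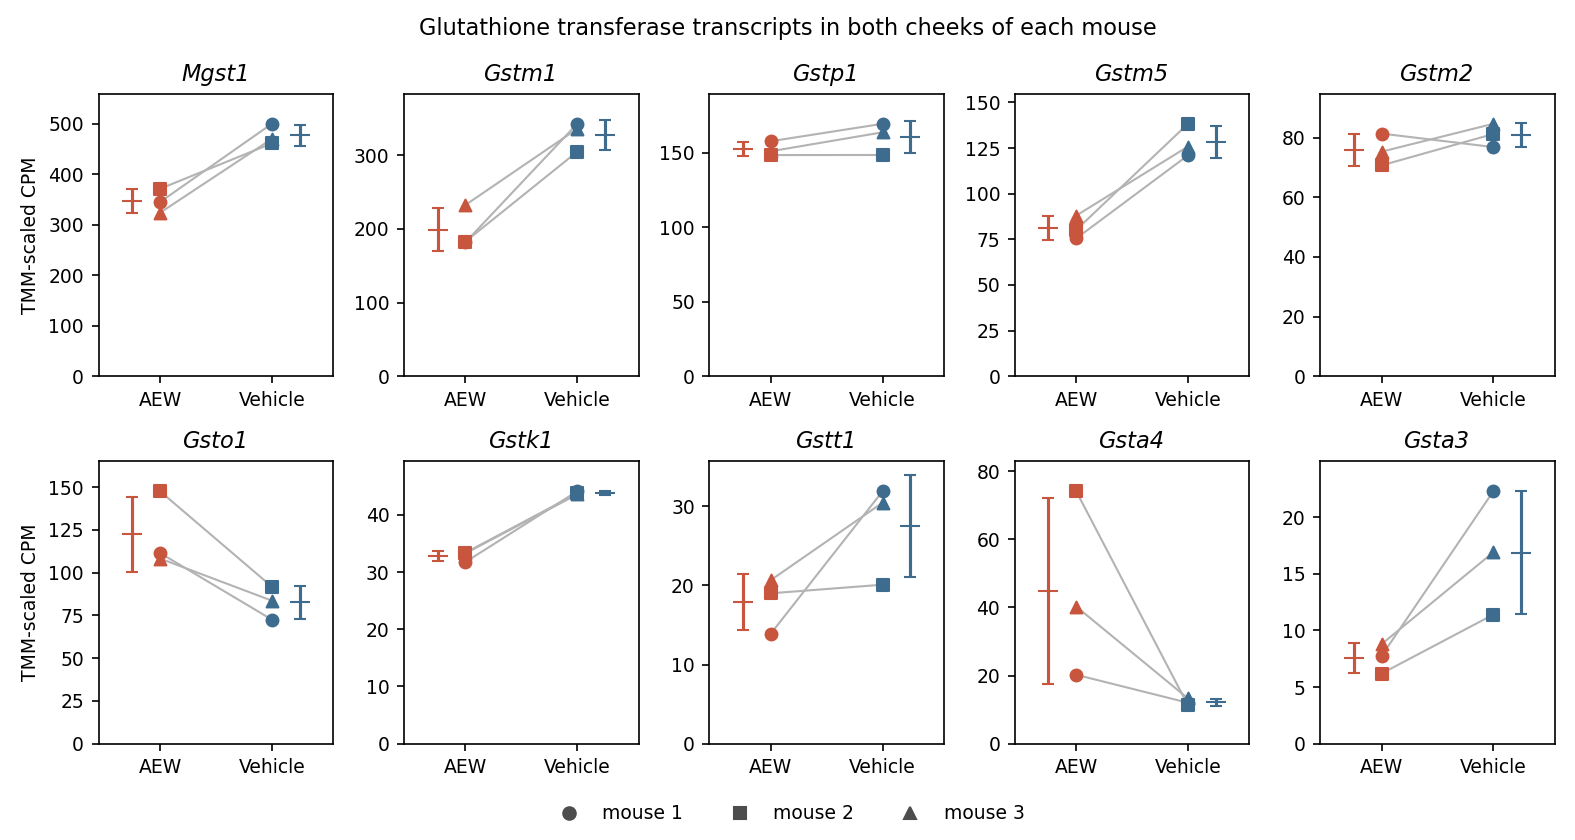
Transcript level of each glutathione transferase in CPM (the count relative to the TMM-scaled library total; linear axes from 0), in AEW cheeks (red, left) and vehicle cheeks (blue, right), with a grey line joining the cheeks of 1 mouse and bars showing the mean and SD of 3 libraries. The groups are apart in 7 of the 10 genes, with the AEW libraries above in Gsta4 and Gsto1 and below in Gsta3, Gstm1, Gstm5, Gstk1 and Mgst1.

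The groups did not overlap in 7 of the 10 members, with AEW below in 5 and above in 2, whereas 36.9% of all tested genes had groups that did not overlap. Within mice, 7 members were lower and 2 were higher in the AEW cheek of all 3 animals, and Gstm2 was the remaining member. The 7 include Gstt1 and Gstp1, with log2 ratios of only -0.080 and -0.00062 in mouse 2. How many of all tested genes kept 1 direction in all 3 mice was not counted, so these numbers have no background to be read against.

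The alpha class held the largest differences in both directions. Gsta4 (gene 14860), whose enzyme is known for its high activity toward hydroxynonenal, a product of lipid peroxidation, had 20.2, 74.1 and 40.3 CPM in the AEW cheeks of mice 1, 2 and 3, against 12.0, 11.3 and 13.3 CPM in their vehicle cheeks. The vehicle libraries lay close together, and the AEW libraries were spread widely above them, with mouse 2 highest and mouse 1 lowest. The log2 fold change was 1.88 ± 0.43 (SE, 95% interval 0.87 to 2.89, adjusted p = 0.0374 in edgeR's quasi-likelihood test), and the log2 ratio of the cheeks was 0.75, 2.72 and 1.60 in mice 1, 2 and 3. In the fit blocked by mouse it was 1.69 (edgeR adjusted p = 0.0782). Without AEW replicate 2 it was 1.31 (edgeR adjusted p = 0.0597). The edgeR adjusted p was also above 0.05 on leaving out AEW replicate 3 (0.0708), vehicle replicate 1 (0.124), vehicle replicate 2 (0.0932) or vehicle replicate 3 (0.14).

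Gsta3 (gene 14859), which in mice encodes an enzyme known for detoxifying the epoxide of aflatoxin, had 7.76, 6.20 and 8.79 CPM in AEW cheeks, against 22.3, 11.4 and 16.9 CPM in vehicle cheeks. All AEW libraries were below all vehicle libraries, and vehicle mouse 2 was the lowest of its group. It fell by 1.15 on the log2 scale (SE 0.26, edgeR adjusted p = 0.0372). Its estimated counts were 118 to 170 in AEW libraries, the fewest of any member there, and 211 to 408 in vehicle libraries. Leaving out AEW replicate 1, 2 or 3 gave edgeR adjusted p of 0.0505, 0.102 and 0.0689, and leaving out vehicle replicate 1 or 3 gave 0.109 and 0.139. On the log2(TPM + 1) scale in limma the log2 fold change was -0.98 with an adjusted p of 0.0582. In each library the 2 genes can be set against each other per length: the ratio of Gsta4 to Gsta3 in TPM, a unit scaled by transcript length, was 3.66, 16.9 and 6.38 in the AEW cheeks of mice 1, 2 and 3 and 0.755, 1.41 and 1.11 in their vehicle cheeks. Every AEW ratio was above every vehicle ratio. This follows from Gsta4 being above and Gsta3 below the vehicle libraries in every AEW library, so it is not further evidence.

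Of the mu class, which acts on many aromatic electrophiles, Gstm1 and Gstm5 fell and Gstm2 was not called. Gstm1 (gene 14862) had 182, 183 and 232 CPM in AEW cheeks of mice 1, 2 and 3, against 343, 305 and 336 CPM in vehicle cheeks. The groups were well apart, with AEW mouse 3 nearest to the vehicle libraries. Its log2 fold change was -0.72 ± 0.13 (SE, edgeR adjusted p = 0.0203), and the adjusted p was 0.0645 without AEW replicate 2, 0.077 without vehicle replicate 1 and 0.0991 without vehicle replicate 3. Gstm5 (gene 14866) had 75.5, 80.1 and 88.0 CPM in AEW cheeks, against 121, 138 and 126 CPM in vehicle cheeks. It had the smallest p of the 10 members, with a log2 fold change of -0.66 ± 0.10 (SE, edgeR adjusted p = 0.0138), and it stayed called on leaving out any library but 2, namely in all but the fits without vehicle replicate 1 (adjusted p = 0.051) and without vehicle replicate 3 (adjusted p = 0.0726).

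Gstm2 (gene 14863) had 81.4, 70.7 and 75.3 CPM in AEW cheeks, against 76.9, 81.2 and 84.7 CPM in vehicle cheeks, and the groups overlapped. Its log2 fold change was -0.094 with a 95% interval from -0.31 to 0.12 (edgeR adjusted p = 0.515). The ratio of Gstm1 to Gstm2 in TPM was 1.76, 2.04 and 2.43 in AEW cheeks and 3.52, 2.96 and 3.13 in vehicle cheeks, with no overlap between groups, and this difference between genes was not tested. Gstm1 and Gstm2 share 19.9% and 8.30% of their 50-base windows, the read length in the labels, with transcripts of other genes in GENCODE M21. The transcripts that shared most were those of Gstm2-ps1 for Gstm1 and Gm12499 for Gstm2, so a part of their reads could be divided among copies. Gstm5 shared none.

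The mu genes stand next to each other on chromosome 3, in the RefSeq order Gstm5, Gstm7, Gstm6, Gstm3, Gstm2, Gstm1, Gstm4 (assembly GRCm38.p6). Of the 6 that were tested, 2 were called. Gstm4, the neighbour of Gstm1, had a log2 fold change of -0.19 (edgeR adjusted p = 0.429). Gstm7 and Gstm6 had -0.41 and 0.42 (edgeR adjusted p = 0.375 and 0.464), and these 3 and Gstm2 were called in none of the 19 alternatives. Levels of Gstm3 were too low to be tested, at 0.47 to 0.56 TPM in AEW and 0.20 to 0.48 TPM in vehicle libraries.

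The microsomal enzyme Mgst1 (gene 56615), which sits in the endoplasmic reticulum and outer mitochondrial membrane and also reduces lipid hydroperoxides, was the most abundant member. It had 345, 371 and 324 CPM in AEW cheeks, against 499.8, 461 and 469.8 CPM in vehicle cheeks. The groups lay apart, each with a small spread. Its log2 fold change was -0.46 ± 0.10 (SE, edgeR adjusted p = 0.0323, and 0.0669 when blocked by mouse). Leaving out AEW replicate 2 or 3 gave edgeR adjusted p of 0.0705 and 0.0714, and leaving out vehicle replicate 1, 2 or 3 gave 0.109, 0.0597 and 0.131. Gstk1 (gene 76263), the kappa enzyme, had 31.8, 33.4 and 33.3 CPM in AEW cheeks, against 44.1, 43.8 and 43.6 CPM in vehicle cheeks, the tightest groups of all members. Its log2 fold change was -0.42 ± 0.07 (SE, edgeR adjusted p = 0.0203), and 0.0545 was the edgeR adjusted p when blocked by mouse. Its edgeR adjusted p was 0.0646 and 0.0506 on leaving out AEW replicate 2 or 3, and 0.073 and 0.0991 on leaving out vehicle replicate 1 or 3.

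Members that were lower together are shown with the part of their promoters that RefSeq gives, since the core of the antioxidant response element, the sequence bound by Nrf2 with a small Maf protein, can be searched in it. The table (assembly GRCm38.p6, 250 bases before to 50 after the start) held 11 promoters of 9 members, and Gsta4 has no entry. The core was searched as TGACNNNGC on both strands. It was found in 1 promoter each of Gsta3, Gstm5 and Mgst1, which is 3 of 9 members, whereas 12.4% of all 32851 promoters and 14% of all 27025 genes held it. These 3 genes are among the 5 that were lower. No match was found in the windows of Gstm1, Gstk1, Gstm2, Gstp1, Gsto1 or Gstt1. Of the other transferases searched, only Gstm7 held a core, 129 bases before the start, and Gstm7 was not called (edgeR adjusted p = 0.375). The sequences below are in lower case, 5′ to 3′ along the gene, with the core in capitals. They are Gsta3 at chr1:21240335-21240634 (plus strand, core starting 121 bases before the start), Gstm5 at chr3:107895604-107895903 (plus strand, 42 bases before) and Mgst1 at chr6:138140277-138140576 (plus strand, 56 bases before, on the complementary strand).
Gsta3: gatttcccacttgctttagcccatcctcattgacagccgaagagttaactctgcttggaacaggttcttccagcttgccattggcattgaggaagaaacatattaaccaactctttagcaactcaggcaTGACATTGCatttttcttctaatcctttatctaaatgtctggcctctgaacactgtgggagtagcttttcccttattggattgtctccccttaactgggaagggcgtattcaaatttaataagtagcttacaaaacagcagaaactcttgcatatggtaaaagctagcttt
Gstm5: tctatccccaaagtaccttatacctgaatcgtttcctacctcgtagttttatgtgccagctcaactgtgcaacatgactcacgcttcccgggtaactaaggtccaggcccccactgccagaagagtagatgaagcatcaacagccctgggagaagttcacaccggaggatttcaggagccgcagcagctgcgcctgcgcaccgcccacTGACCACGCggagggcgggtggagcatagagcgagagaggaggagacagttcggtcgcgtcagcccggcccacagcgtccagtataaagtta
Mgst1: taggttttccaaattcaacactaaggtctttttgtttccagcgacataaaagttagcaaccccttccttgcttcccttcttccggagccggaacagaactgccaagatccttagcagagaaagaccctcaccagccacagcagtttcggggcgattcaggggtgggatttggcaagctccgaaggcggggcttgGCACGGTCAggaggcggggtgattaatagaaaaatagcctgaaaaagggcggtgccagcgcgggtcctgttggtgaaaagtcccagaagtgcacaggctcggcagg
The AP-1 sequence TGACTCA, searched on both strands, can overlap the core in principle but did not in these windows. It was in the promoters of 2 of the 9 members, Gstm5 and Gstp1, and in 5.2% of all promoters and 5.95% of all genes. Of the other transferases searched, Mgst2 and Gstp2 held it, 52 and 89 bases before the start. Mgst2 was called higher and Gstp2 was not called (edgeR adjusted p = 0.0492 and 0.0643). A match of letters describes the window and was not set against binding.

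Gsto1 (gene 14873), the omega enzyme with an active-site cysteine that acts as a thiol transferase and dehydroascorbate reductase, had 112, 148 and 108 CPM in AEW cheeks of mice 1, 2 and 3, against 72.6, 91.9 and 83.7 CPM in vehicle cheeks. All AEW libraries were above all vehicle libraries. The log2 fold change was 0.57 ± 0.15 (SE, 95% interval 0.21 to 0.92), but the edgeR adjusted p of 0.0537 missed the threshold. It was called by DESeq2 (adjusted p = 0.00662), with library totals as the only scaling (edgeR adjusted p = 0.0411), on the TPM values (limma adjusted p = 0.0385) and without AEW replicate 1 (edgeR adjusted p = 0.0476), and in 6 of the 19 alternatives in all. Among those that did not call it, the edgeR adjusted p was 0.11 without AEW replicate 2, 0.167 without vehicle replicate 1 and 0.179 without vehicle replicate 3. The ratio of Gsto1 to Gstm1 in TPM was 0.676, 0.891 and 0.514 in AEW cheeks and 0.233, 0.332 and 0.275 in vehicle cheeks. Its separation follows from Gsto1 being above and Gstm1 below the vehicle libraries in every AEW library, so it is not further evidence.

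Gstt1 (gene 14871), the theta enzyme that acts on small halogenated compounds, had 13.9, 19.0 and 20.7 CPM in AEW cheeks, against 31.9, 20.1 and 30.5 CPM in vehicle cheeks. AEW mouse 3 was above vehicle mouse 2, so the groups overlapped. The log2 fold change was -0.62 ± 0.22 (SE, edgeR adjusted p = 0.106), and the log2 ratio of the cheeks came to -1.20, -0.080 and -0.56 for mice 1, 2 and 3. Its chromosome 10 neighbours Gstt2 and Gstt3 had log2 fold changes of -0.61 and -0.26 (edgeR adjusted p = 0.0854 and 0.131).

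Gstp1 (gene 14870), the pi enzyme and a major transferase of epithelia, had 158, 149 and 151 CPM in AEW cheeks, against 169.6, 149 and 164 CPM in vehicle cheeks. The groups overlapped, and the log2 fold change was -0.075 with a 95% interval from -0.29 to 0.14 (edgeR adjusted p = 0.605). The interval does not reach the estimates of Gstm1 and Gstm5, but the difference between the genes was not tested. Gstp1 shares 51% of its 50-base windows with Gstp2, so the split of reads between them is uncertain. Gstp2 had 11.9, 17.2 and 17.3 CPM in AEW cheeks, against 25.7, 20.4 and 24.9 CPM in vehicle cheeks (log2 fold change -0.61, edgeR adjusted p = 0.0643). Their sum was 168 ± 2.05 CPM in AEW and 184 ± 13.7 CPM in vehicle libraries (SD, n = 3 each).

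**Figure D2:**
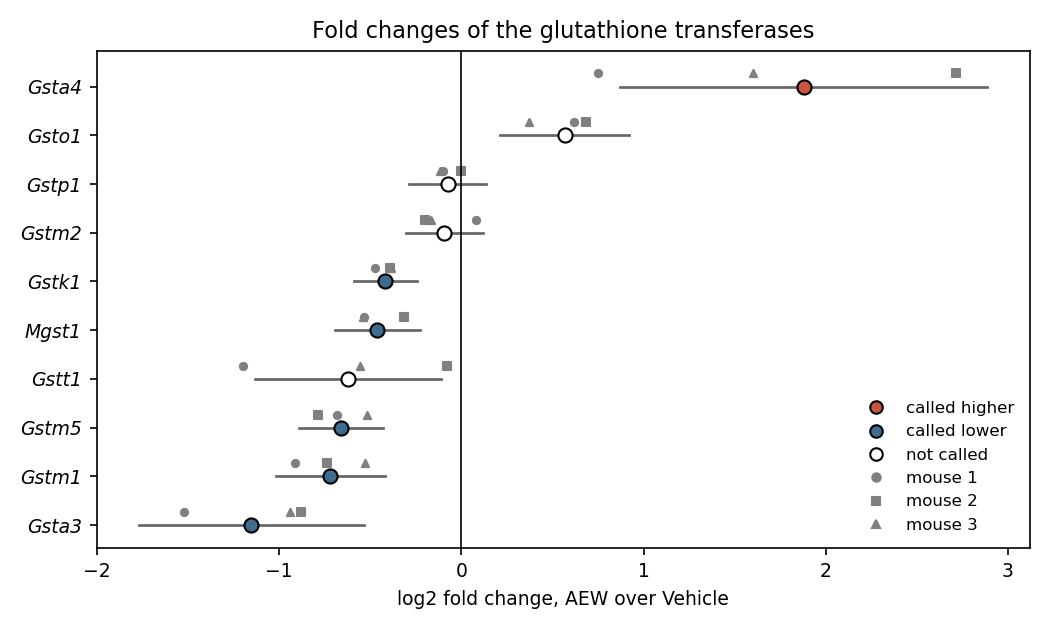
Log2 fold change of AEW over vehicle for each glutathione transferase (circles, with the 95% interval as a line; red called higher, blue called lower, white not called), and the log2 ratio of the cheeks of each mouse as small grey symbols. Gsta4 is at 1.88 with its 3 mice spread from 0.75 to 2.72, and the 5 genes called lower lie between -1.15 and -0.42.

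Per length, the order of the members in vehicle skin ran from Mgst1 at 844 ± 22.8 TPM through Gstm1 at 423 ± 20.0, Gstp1 at 372 ± 19.3, Gstm5 at 239.8 ± 20.6, Gstm2 at 133 ± 7.85, Gsto1 at 118 ± 15.7, Gstk1 at 80.1 ± 1.04 and Gstt1 at 49.4 ± 10.6 to Gsta4 at 21.6 ± 1.72 and Gsta3 at 21.1 ± 6.66 TPM (SD, n = 3). The last pair differed by less than their spread, and Gstm2 and Gsto1 by less than the SD of Gsto1. In AEW skin Gstp1, at 368 ± 27.6 TPM, stood above Gstm1, at 268 ± 46.1 TPM, in all 3 libraries. Gsto1, at 181 ± 22.9 TPM, stood above Gstm5, at 158 ± 15.1 TPM, in AEW mice 1 and 2 but not in mouse 3. Gsta4, at 81.2 ± 45.5 TPM, was within its spread of Gstk1, at 62.4 ± 2.45 TPM.

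Summed over the 10 members, glutathione transferase transcripts came to 1907, 1915 and 1968 TPM in AEW cheeks of mice 1, 2 and 3, against 2323, 2264 and 2319 TPM in vehicle cheeks. The AEW sum averaged 83.8% of the vehicle sum, and the ratio of the cheeks was 0.821, 0.846 and 0.849 in mice 1, 2 and 3. Mgst1 made up 31.1% to 37.5% of the sum in every library. Gsta4 made up 2.02%, 6.74% and 3.87% of it in AEW cheeks, against 0.9%, 0.898% and 1.02% in vehicle cheeks. Gsto1 averaged 9.37% in AEW and 5.13% in vehicle libraries, and Gstm1 averaged 13.9% and 18.4%. The members were chosen by name, so this sum describes these 10 genes and not the whole transferase pool.

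**Figure D3:**
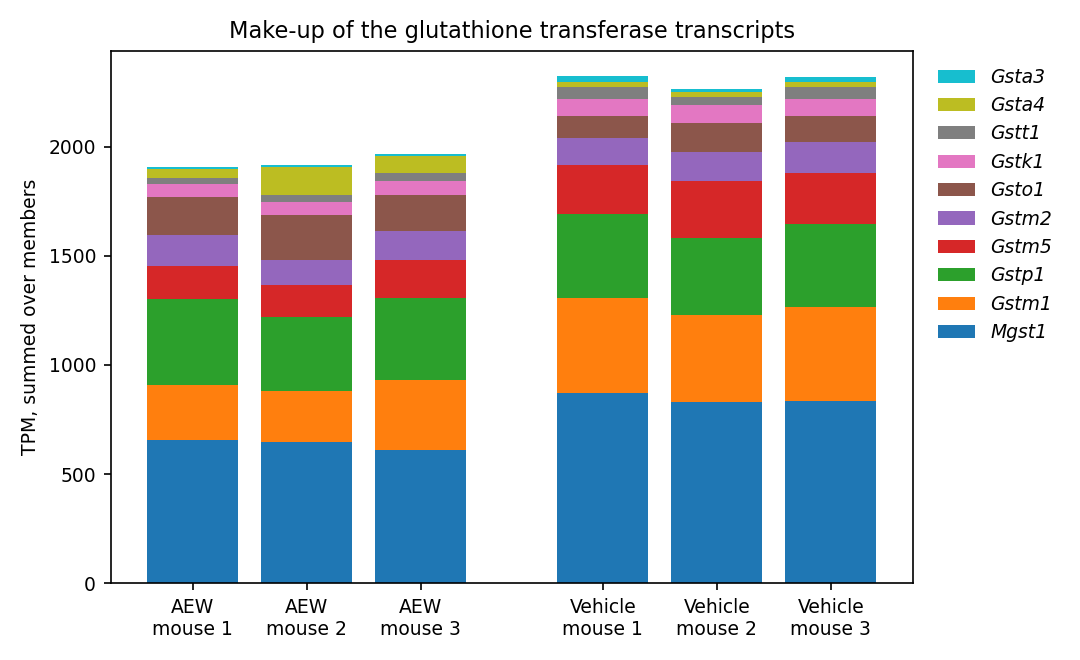
TPM of the 10 glutathione transferases stacked in each library, AEW cheeks on the left and vehicle cheeks on the right, most abundant member at the bottom. The AEW stacks reach 1907 to 1968 TPM and the vehicle stacks 2264 to 2323 TPM, and the Gsta4 and Gsto1 layers are thicker in the AEW stacks.

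Among 20 other genes of the transferase superfamilies in the table, 17 were tested, of which 3 rose (Gsta1, Mgst2 and Ptges) and 1 fell (Hpgds), with a median log2 fold change of -0.19. Gsta1, the neighbour of Gsta4 on chromosome 9, had 14.5, 39.0 and 17.5 TPM in AEW cheeks, against 7.04, 4.19 and 6.84 TPM in vehicle cheeks (log2 fold change 1.94 ± 0.45, SE, edgeR adjusted p = 0.04, and adjusted p = 0.116 with the mouse as a block). As with Gsta4, AEW mouse 2 was the highest library. Gsta1 shares 89.7% of its 50-base windows with other genes, so its own level is uncertain, whereas Gsta4 shares none. Gsta2, also on chromosome 9, had a log2 fold change of 0.018 (edgeR adjusted p = 0.966). Mgst2, a microsomal transferase that can also make leukotriene C, rose by 0.91 on the log2 scale (edgeR adjusted p = 0.0492), and Ptges, the inducible prostaglandin E synthase, rose by 0.97 (adjusted p = 0.0411, and 0.0912 with the mouse as a block). Hpgds, the glutathione-dependent prostaglandin D synthase of mast cells and other immune cells, had a log2 fold change of -0.92 (edgeR adjusted p = 0.0257), with 8.55, 12.8 and 10.7 TPM in AEW cheeks, against 17.1, 21.1 and 20.6 TPM in vehicle cheeks. None of these 4 was called without vehicle replicate 1 (adjusted p from 0.0709 to 0.157) or vehicle replicate 3 (0.115 to 0.184), or without AEW replicate 3 (0.0551 to 0.0836) in edgeR. Without AEW replicate 2 the edgeR adjusted p of Gsta1, Mgst2 and Ptges was 0.0646, 0.112 and 0.0697. Without vehicle replicate 2 that of Gsta1, Ptges and Hpgds was 0.0983, 0.101 and 0.0611, and without AEW replicate 1 that of Mgst2 was 0.0509.

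Genes that make and recycle glutathione were mostly not called. For glutathione synthesis and cystine supply, 2 of 11 tested genes rose and 0 fell, with a median log2 fold change of 0.17. Slc7a11, the cystine transporter, had 0.91, 2.16 and 1.07 TPM in AEW cheeks, against 0.23, 0.31 and 0.22 TPM in vehicle cheeks (log2 fold change 2.43 ± 0.41, SE, edgeR adjusted p = 0.018). Ggct, which breaks down gamma-glutamyl peptides and is abundant in epidermis, had a log2 fold change of 0.99 (edgeR adjusted p = 0.0315), and Oplah, the oxoprolinase that acts after it, had -0.26 (adjusted p = 0.123). Gclc and Gclm, the subunits of the rate-limiting ligase of glutathione synthesis, had log2 fold changes of -0.046 and 0.19 (edgeR adjusted p = 0.865 and 0.372). Of 14 tested genes for glutathione reduction and peroxidases, 2 rose and 0 fell, with a median of 0.067. Glrx, a glutaredoxin, had 176, 533 and 399 TPM in AEW cheeks, against 125, 127 and 95.2 TPM in vehicle cheeks (log2 fold change 1.64, edgeR adjusted p = 0.0437, and 0.0962 with the mouse as a block). G6pdx, which supplies NADPH, had a log2 fold change of 0.37 (edgeR adjusted p = 0.046, and 0.103 with the block). The peroxidase Gpx2 had a log2 fold change of 1.18 (edgeR adjusted p = 0.0503, and 0.0292 with the block). None of the 4 called genes was called without vehicle replicate 1 (adjusted p from 0.0772 to 0.125) or vehicle replicate 3 (0.0956 to 0.171). Slc7a11 stayed called without any other library. For Ggct, Glrx and G6pdx the edgeR adjusted p was 0.0622, 0.0919 and 0.131 without AEW replicate 2 and 0.0547, 0.0925 and 0.0799 without AEW replicate 3, and for Glrx and G6pdx it was 0.0932 and 0.115 without vehicle replicate 2.

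For export of conjugates and mercapturate formation, edgeR called 0 of 14 tested genes, with 1 higher and 1 lower at an unadjusted p under 0.05 and 1 called higher by DESeq2. Abcc3, a pump for conjugates, had a log2 fold change of 0.72 (edgeR adjusted p = 0.0545). Abcc5 and Ggt7 had -0.30 and 0.51 (edgeR adjusted p = 0.159 and 0.188). Nrf2 itself (Nfe2l2) had a log2 fold change of 0.17 and its repressor Keap1 had -0.18 (edgeR adjusted p = 0.227 and 0.199). Over Nrf2 and its regulators edgeR called 0 of 7 genes, with 0 higher and 1 lower at an unadjusted p under 0.05 and none called by DESeq2, and Mafk had -0.31 (edgeR adjusted p = 0.105). Of 12 tested Nrf2 target enzymes outside glutathione metabolism, 1 rose and 1 fell, with a median log2 fold change of 0.0018. Cbr3, a carbonyl reductase, had a log2 fold change of 0.56 (edgeR adjusted p = 0.0336), and Aox1, an aldehyde oxidase, had -0.98 (adjusted p = 0.0276, and 0.0508 with the mouse as a block). Ephx1, the microsomal epoxide hydrolase, had -0.43 (edgeR adjusted p = 0.0525). Neither called gene was called without vehicle replicate 1 (adjusted p = 0.112 and 0.092), vehicle replicate 3 (0.129 and 0.118) or AEW replicate 2 (0.0928 and 0.0662), and Cbr3 was not called without AEW replicate 3 (edgeR adjusted p = 0.0694).

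Of 17 tested aldehyde and xenobiotic enzymes of other families, 7 were lower and 1 was higher, with a median log2 fold change of -0.42. Blocking by mouse left 4 lower and 1 higher. Of these 8 calls, leaving out AEW replicate 1, 2 or 3 kept 8, 2 and 7, and leaving out vehicle replicate 1, 2 or 3 kept 0, 6 and 0. Fmo2, a flavin monooxygenase, had 15.0, 13.7 and 19.0 TPM in AEW cheeks, against 28.2, 27.6 and 31.8 TPM in vehicle cheeks (log2 fold change -0.94 ± 0.13, SE, edgeR adjusted p = 0.0115). Aldh1a1, a retinal dehydrogenase, had a log2 fold change of -1.10 (edgeR adjusted p = 0.0119). Akr1b8, an aldo-keto reductase, was the gene that rose, by 0.91 on the log2 scale (edgeR adjusted p = 0.0201). Fmo2, Aldh1a1 and Akr1b8 had adjusted p of 0.0506, 0.0534 and 0.0709 without vehicle replicate 1 and of 0.0583, 0.0603 and 0.098 without vehicle replicate 3, and Akr1b8 had 0.0516 without AEW replicate 2.

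**Figure D4:**
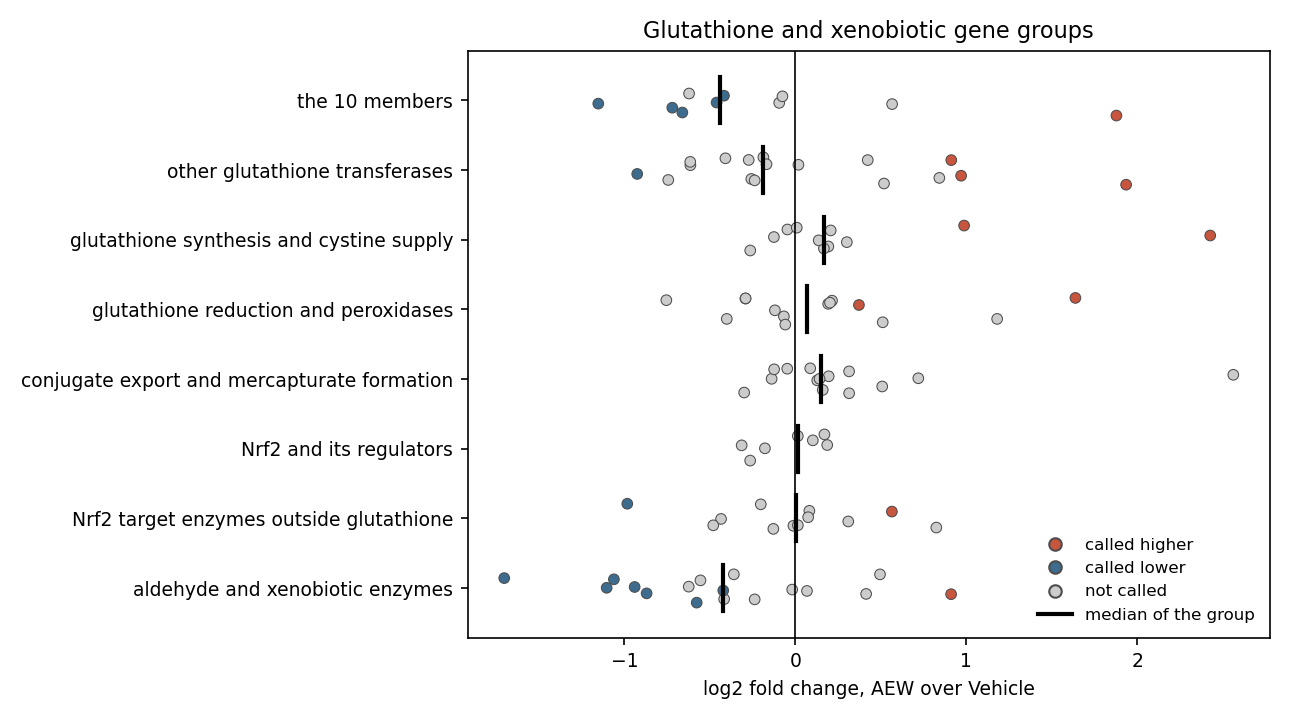
Log2 fold change of AEW over vehicle for each tested gene of 8 gene groups, with red for genes called higher, blue for genes called lower, grey for genes not called and a black bar at the median of the group; vertical scatter within a group has no meaning. The medians of the 10 members and of the aldehyde and xenobiotic enzymes lie at -0.44 and -0.42, and those of the other 6 groups between -0.19 and 0.17.

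The tissue was checked against lists of markers of 17 cell types. All 116 list entries found in the table, with S100a8 counted in 2 lists, had counts in at least 1 library. Among epidermal keratins, Krt14 was at 6047 to 7015 TPM in AEW and 2467 to 3961 TPM in vehicle libraries. Skeletal muscle markers were present as well, with Acta1 at 3949 to 5695 TPM in AEW and 9281 to 13818 TPM in vehicle libraries. The muscle list had 9 of 10 genes lower and summed to 13071 to 17745 TPM in AEW, against 31701 to 43689 TPM in vehicle libraries. The adipocyte list had 3 of 10 genes lower (0 with the mouse as a block) and summed to 5361 to 6420 TPM in AEW, against 7529 to 12117 TPM in vehicle libraries. Stressed keratinocyte markers had 7 of 7 genes higher (4 with the block) and summed to 3949, 7482 and 5236 TPM in AEW mice 1, 2 and 3, against 1113 to 1452 TPM in vehicle libraries. Neutrophil markers had 3 of 4 tested genes higher (1 with the block) and summed to 31.6, 188 and 105 TPM in AEW mice 1, 2 and 3, against 9.24 to 19.2 TPM in vehicle libraries. Of this list, Ly6g and Mpo had too few counts to be tested, and Csf3r was not called (edgeR adjusted p = 0.141). Mouse 2 was thus the highest and mouse 1 the lowest AEW library in both sums, as for Gsta4, and S100a8 stands in both lists. The AEW sums of the basal and suprabasal keratinocyte, adipocyte and macrophage lists had the same order. This order is therefore not particular to the stressed keratinocyte and neutrophil lists. The most abundant markers of the muscle list, Acta1 and Tnnt3, had log2 fold changes of -1.39 and -1.34, and those of the adipocyte list, Car3 and Cfd, had -0.84 and -1.06. Krt17 and Krt6a led the stressed keratinocyte list with 0.69 and 2.86, and Cxcr2 and S100a9 the neutrophil list with 1.81 and 3.59. Basal keratinocyte markers summed to 11138 to 11535 TPM in AEW and 5952 to 9714 TPM in vehicle libraries, with 1 of 7 genes higher (Krt14). The basal genes did not all move 1 way, with 2 higher and 1 lower at an unadjusted p under 0.05. By DESeq2, 1 was higher and 1 lower. Krt15 was not called (edgeR adjusted p = 0.0506), and its log2 fold change was -0.92 to -0.63 on leaving out 1 library. Sebaceous gland markers summed to 1151 to 2008 TPM in AEW and 887 to 1140 TPM in vehicle libraries, with 1 of 10 genes higher (Elovl3). At an unadjusted p under 0.05, 2 sebaceous genes were higher and 2 lower, and DESeq2 called 2 higher and 0 lower. Pericyte and smooth muscle markers had 3 of 6 genes lower (2 with the block) and summed to 582 to 765 TPM in AEW, against 1209 to 1467 TPM in vehicle libraries. The suprabasal keratinocyte, fibroblast and T cell lists had 1 call each, namely Krt1 and Pdgfra higher and Cd3g lower (log2 fold change 1.89 for Krt1 and -0.74 for Cd3g), and Pdgfra and Cd3g were not called with the block (edgeR adjusted p = 0.0703 and 0.0508). Of the other abundant markers of these lists, Des had a log2 fold change of -1.24 (edgeR adjusted p = 0.0125), while Far2 (0.55), Krt5 (0.43), Krt10 (0.55), Dcn (-0.48), Col3a1 (0.52), Acta2 (-0.52) and Cd4 (0.83) were not called. EdgeR called none of 6 endothelial genes, although all 6 were lower at an unadjusted p under 0.05 and by DESeq2. It called none of 5 melanocyte genes, although 5 were higher at an unadjusted p under 0.05 and 4 by DESeq2, and the list summed to 191, 27.3 and 33.4 TPM in AEW mice 1, 2 and 3, against 14.6 to 19.1 TPM in vehicle libraries. Schwann cell and red blood cell markers each had 0 edgeR calls and 2 genes lower at an unadjusted p under 0.05 (0 and 2 by DESeq2), and macrophage and mast cell markers had 0 by all of these. Hair follicle markers had 0 of 10 genes called by edgeR, 0 at an unadjusted p under 0.05 and 0 by DESeq2, but summed to 2200 TPM in AEW mouse 1, against 67.5 and 580 TPM in AEW mice 2 and 3 and 310 to 364 TPM in vehicle libraries. Marker calls also depended on single libraries. Of the 9 muscle calls, leaving out AEW replicate 1, 2 or 3 kept 9, 4 and 9, and leaving out vehicle replicate 1, 2 or 3 kept 4, 9 and 2. For the 7 stressed keratinocyte calls these numbers were 7, 5 and 6 for the AEW replicates and 3, 6 and 2 for the vehicle replicates. The 3 neutrophil calls were all kept on leaving out AEW replicate 1, and 0 were kept on leaving out any other library. For the 3 adipocyte calls the numbers were 1, 0 and 0 for the AEW replicates and 0, 3 and 0 for the vehicle replicates, and for the 3 pericyte and smooth muscle calls they were 3, 1 and 2, and 0, 3 and 0. The basal, suprabasal, sebaceous, fibroblast and T cell lists kept 0 calls on leaving out vehicle replicate 1 or 3. Krt14 and Elovl3 were also lost without AEW replicate 2 or 3 and Cd3g without AEW replicate 2, and Pdgfra was kept in 1 of the 6 such fits, that lacking AEW replicate 3. The part of these shifts in the changes of the glutathione transferases was not tested.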

How the data were processed

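RNA of both cheeks of 3 mice was read as single ends of 50 bases after poly(A) selection, per the labels' protocols. The submitters' processing notes name HISAT and build GRCm39; which tool counted the reads, and on which annotation, is not stated. Per the file headers, the authors deposited TPM, FPKM and estimated counts in 1 table. Estimated counts were rounded, filtered with filterByExpr (minimum count 10), scaled with TMM (factors 0.973 to 1.05) and tested by group alone with edgeR 4.0.16 (R 4.3.3). Limma 3.58.1 on TPM (pseudocounts 1 and 0.1) and DESeq2 1.42.0 were alternatives; FPKM was not used. The fit was tested on simulated data. Precision rests on 3 libraries a group, and all pairs of libraries in a group differed beyond sampling noise. Both cheeks of a mouse share its number, so the numbers pair libraries by animal. Deviations from group means correlated at -0.244, -0.165 and -0.246 within mice and at 0.050 to 0.181 between mice. Deviations cancel within a group, so these values depend on each other. A fit with a mouse block, other scalings and filters, and fits without each library or mouse were further alternatives. The members and gene lists were chosen with earlier results of these data known. All members were named, with called relatives, the 3 smallest p of each pathway list and the 2 most abundant genes of each marker list with a call. Chosen after their values were seen were Gstm4, Gstm6, Gstm7, Gstm3, Gsta2, Gstp2, Gstt2, Gstt3, Gclc, Gclm, Pdgfra, S100a8, Ly6g, Mpo, Csf3r and Krt15. Promoters come from RefSeq. Strand use is not stated, so antisense overlaps cannot be told apart.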

Additional observations from a re-analysis of the deposited data

How the results depend on the processing

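The 10 members kept the sign of their log2 fold change in all 19 alternatives, from 1.18 to 2.22 for Gsta4, -1.37 to -0.90 for Gsta3, -0.84 to -0.63 for Gstm1, -0.73 to -0.60 for Gstm5, -0.54 to -0.40 for Mgst1 and -0.46 to -0.35 for Gstk1. The alternatives reuse the same libraries. Calls were less stable, and the cause was not tested. Members called higher numbered 1, and 2 with library totals only, DESeq2, limma on either TPM scale or both cheeks of mouse 1 left out under the block. They numbered 0 with the mouse as a replicate block, where 3 were lower; the block ended the calls of Gsta4, Gstk1 and Mgst1 and changed no other member call. Members called higher ranged from 0 to 2 and lower from 0 to 4 when 1 library was left out. With mouse 2 or mouse 3 left out under the block 0 members were called in either direction. Over all genes, 733 were higher and 1027 lower; DESeq2 had 1362 higher, the replicate block 300 and 588, limma 666 lower on both TPM scales, and leaving out a library gave 23 to 1197 higher and 117 to 1041 lower. With mouse 1, 2 or 3 left out under the block the higher calls were 1922, 112 and 0 and the lower calls 1588, 279 and 0; for mouse 3 edgeR still had 790 higher and 1099 lower at an unadjusted p under 0.05. Precision is limited by 3 libraries a group.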
